A study of Homo sapiens with 6 samples.

Results

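The nectin family described here consists of 8 genes: the nectins NECTIN1, NECTIN2, NECTIN3 and NECTIN4, the nectin-like molecules PVR, CADM1 and CADM4, and AFDN, which encodes the linker afadin. They were taken by gene symbol from the 60708 gene identifiers counted in each library, and all 8 had enough counts to be among the 20409 genes tested. The family was put together with results of these same libraries known, among them the difference of NECTIN4 between the treatments. The differences of the members between treatments are therefore given as a description, with their errors. A member said to be called lay past an adjusted p of 0.05 in the fit over all genes, which is a place in that ranking and not a test of the member. The cells were U2OS, an established human osteosarcoma line. Control cells received the solvent DMSO and the others received 25 µM PDD00017273, an inhibitor of the poly(ADP-ribose)-degrading enzyme PARG, for 4 days. The treated group is called PARGi below, and there were 3 libraries of total RNA in each group.

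Nectins are immunoglobulin-like proteins of the cell surface that pair with one another across neighbouring cells and are tied to actin filaments by afadin, next to the cadherins of the adherens junction. Nectin-like molecules have a similar extracellular part and do not bind afadin. PVR, the poliovirus receptor, and NECTIN2 are also ligands of receptors on T and NK cells. CADM1 and CADM4 bind scaffold proteins of the band 4.1 and membrane-associated guanylate kinase families. NECTIN4 is best known in epithelia, in placenta and in urothelial and breast carcinomas, where it is the target of an antibody-drug conjugate.

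The libraries held 60286931 to 80605145 counts, with trimmed-mean (TMM) scaling factors from 0.9953 to 1.007. Of 9 osteosarcoma and mesenchymal markers, 8 were tested, and among them COL1A1 stood at 4374 ± 267.8 CPM (counts scaled to library size by TMM) in DMSO against 4411 ± 53.05 CPM in PARGi (SD over n = 3). TWIST1 was near 0. Of these 8 genes, 4 were called by edgeR, beside 24.3% of all tested genes. RUNX2 fell from 83.3 ± 1.14 to 69.0 ± 0.606 CPM (log2 fold change -0.27), COL1A2 from 13.0 ± 1.38 to 7.41 ± 0.685 CPM (-0.80) and SPARC by 0.083 on the log2 scale, and ALPL rose by 0.23. Markers of other cells were low: the summed level of 8 T and NK cell markers was 2.46 to 2.58 CPM in DMSO against 2.33 to 2.75 CPM in PARGi, with CD2 and NKG7 at 0 in all libraries. The 7 myeloid markers summed to 0.393 to 0.599 CPM in DMSO against 0.367 to 0.609 CPM in PARGi, with FCGR3A at 0 in all libraries. The 6 endothelial markers summed to 6.52 to 8.65 CPM in DMSO against 7.91 to 8.92 CPM in PARGi, while 1 of the 5 tested, KDR, fell from 0.472 ± 0.0263 to 0.279 ± 0.0589 CPM (edgeR adjusted p = 0.0432). In a bulk sample, more RNA per cell and more cells that express a gene cannot be told apart.

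NECTIN4 was the scarcest member and the one with the largest difference between treatments. The protein-coding gene ENSG00000143217.9 spans 161070995 to 161089599 on the minus strand of chromosome 1 (GRCh38, GENCODE 29, as are all gene positions here). DMSO libraries 1, 2 and 3 gave 115, 113 and 119 raw counts of it, and PARGi libraries 1, 2 and 3 gave 228, 312 and 340. On the CPM scale these were 1.81, 1.77 and 1.6 in DMSO and 3.8, 4.22 and 4.23 in PARGi. Every PARGi library thus held more than the highest DMSO library. The mean was 1.73 ± 0.114 CPM for DMSO against 4.08 ± 0.244 CPM for PARGi (SD over 3 libraries, as are all ± values here). The log2 fold change of PARGi over DMSO in edgeR was 1.25 with a standard error of 0.105. That is 2.38-fold, with a 95% confidence interval from 2.04 to 2.76. In absolute log2 fold change NECTIN4 was exceeded by 82 of the tested genes, whereas 12661 exceeded it in mean CPM. Counting error alone accounts for a coefficient of variation of 9.30% per DMSO library and 5.90% per PARGi library. The observed values, each over 3 libraries, were 6.57% and 5.98%.

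The sequence just before the start of NECTIN4 is shown beside that of NECTIN2, the most abundant nectin, because they are the nectins that differ most in level. The bases are from RefSeq windows on GRCh38.p14, 5′ to 3′ on the strand of the gene, limited to those upstream of all annotated exons, with CpG dinucleotides in capitals. The NECTIN4 stretch is chr1:161089600-161089808 on the minus strand and the NECTIN2 stretch is chr19:44846047-44846174 on the plus strand.
NECTIN4: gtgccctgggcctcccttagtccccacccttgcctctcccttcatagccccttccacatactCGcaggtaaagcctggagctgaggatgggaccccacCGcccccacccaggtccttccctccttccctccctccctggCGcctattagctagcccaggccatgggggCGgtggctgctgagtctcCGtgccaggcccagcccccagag
NECTIN2: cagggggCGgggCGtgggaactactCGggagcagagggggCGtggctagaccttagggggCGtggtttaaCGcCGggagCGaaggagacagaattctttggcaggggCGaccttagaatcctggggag

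Over the full 250 bases before the RefSeq start, windows were found for 6 of the 8 members. NECTIN4 had 6 CpG dinucleotides at a G+C content of 65.2%, an observed-to-expected CpG ratio of 0.243. NECTIN2 had 19 at 67.6%, a ratio of 0.808. The windows of NECTIN3 and PVR each held 27, that of CADM4 held 30 and that of AFDN 41, with ratios from 0.882 to 1.05. NECTIN4 was the only one of the 6 below the median ratio of 0.558 over 35116 windows. A search on both strands covered the GC box GGGCGG, the E-box CACGTG, the AP-1 site TGANTCA, the TEAD site GGAATG and the metal response element cores TGCGCNC and TGCACNC, none of which contains another. NECTIN4 matched the GC box in 2 places and none of the others. The GC box was present in 42.6% of all windows and in 5 of the 6 member windows. The remaining motifs were in 6.34% (E-box), 6.57% (AP-1), 11.9% (TEAD), 16.8% (TGCGCNC) and 9.87% (TGCACNC) of all windows. Among the members they were found only as GGAATG in PVR and TGCGCNC in NECTIN3. A match is a run of letters, not a bound site.

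**Figure D1:**
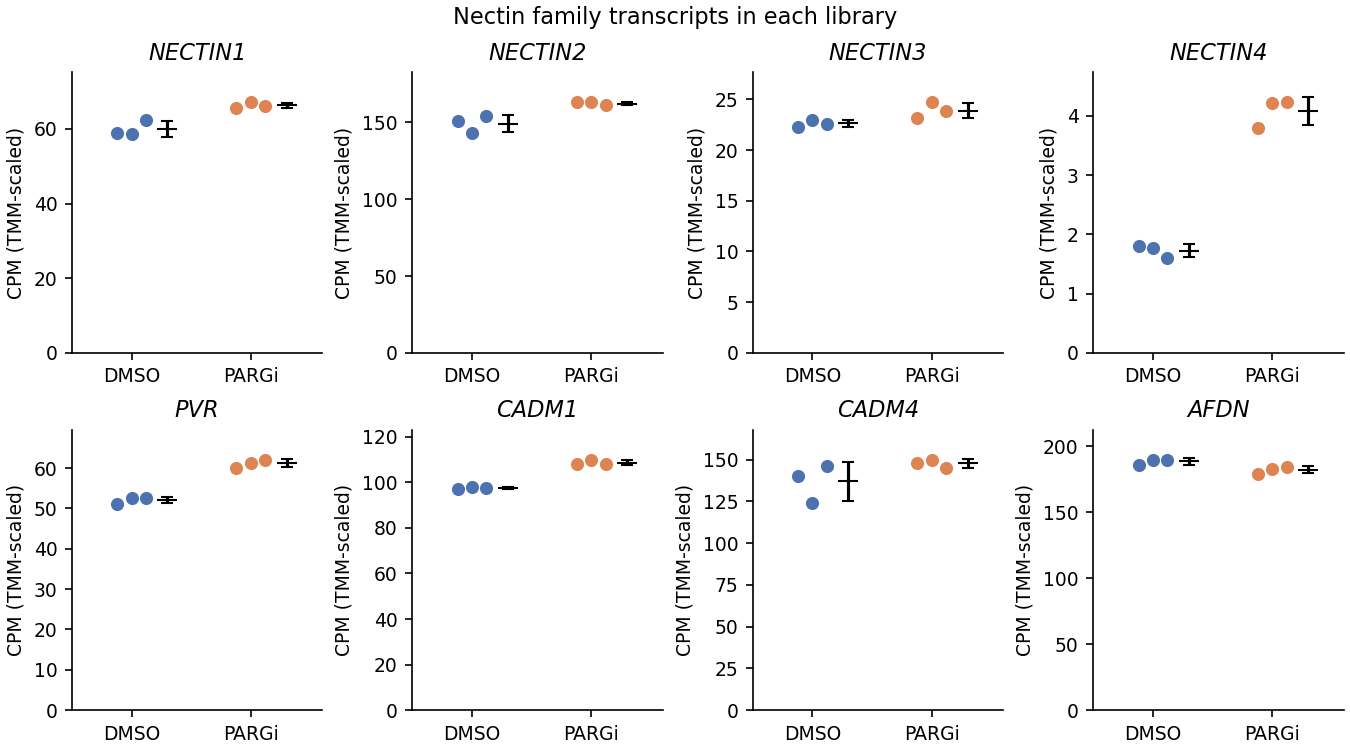
TMM-scaled CPM of each of the 8 members, with a point for each of the 3 DMSO and 3 PARGi libraries and a bar for the mean and SD; each panel has its own axis from 0. NECTIN4 went from 1.73 to 4.08 CPM, whereas the other members moved by small fractions of their level, with CADM4 overlapping between the groups and AFDN lower in PARGi.

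The other nectins were more abundant and differed little. NECTIN2, a receptor for herpesviruses and a ligand of lymphocyte receptors (chromosome 19, 44846175 to 44889228), was at 151, 143 and 154 CPM in DMSO against 163, 163 and 161 CPM in PARGi. All PARGi libraries lay above all DMSO libraries, and the log2 fold change was 0.12 (SE 0.028), or 8.73% (95% confidence interval 4.49% to 13.1%). NECTIN1, the main herpes simplex virus entry receptor (chromosome 11, 119623408 to 119729084), was at 58.9, 58.6 and 62.4 CPM in DMSO against 65.6, 67.1 and 66.1 CPM in PARGi. Its groups did not overlap either, at a log2 fold change of 0.14 (SE 0.030), or 10.4%. NECTIN3, which pairs with NECTIN1 and NECTIN2 across cell contacts (chromosome 3, 111070071 to 111275563), was at 22.3, 23.0 and 22.6 CPM in DMSO against 23.2, 24.7 and 23.8 CPM in PARGi. The groups were separate by a narrow gap. The log2 fold change was 0.079 (SE 0.040) with an interval from -0.28% to 11.9%, and NECTIN3 was not among the genes called.

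Among the nectin-like members PVR had the largest difference. PVR (chromosome 19, 44643798 to 44663583) was at 51.2, 52.5 and 52.5 CPM in DMSO against 60.1, 61.3 and 62.1 CPM in PARGi. The groups were far apart relative to their spread, with a log2 fold change of 0.23 (SE 0.029), or 17.5% (12.6% to 22.5%). CADM1, an adhesion molecule often silenced in carcinomas (chromosome 11, 115169218 to 115504957), was at 97.3, 97.8 and 97.5 CPM in DMSO against 108, 110 and 108 CPM in PARGi. The groups did not overlap, at a log2 fold change of 0.16 (SE 0.026), or 11.4%. CADM4, known for contacts between glia and axons (chromosome 19, 43622368 to 43639839), was at 140, 124 and 146 CPM in DMSO against 148, 150 and 145 CPM in PARGi. DMSO replicate 2 was low, and PARGi replicate 3 fell inside the DMSO range. CADM4 had a log2 fold change of 0.11 (SE 0.039), but 0.044 without DMSO replicate 2, where it was no longer called. Its call also ended without any one of DMSO replicate 1 (0.13) and PARGi replicates 1 (0.11), 2 (0.098) and 3 (0.12), with DESeq2 (0.11) and with upper-quartile scaling (0.086).

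AFDN went the other way. The gene (chromosome 6, 167826922 to 167972023) was at 186, 190 and 190 CPM in DMSO against 179, 183 and 184 CPM in PARGi. The highest PARGi library was just under the lowest DMSO library, with a log2 fold change of -0.051 (SE 0.025), or -3.45% (-6.82% to 0.052%). AFDN was not called, except with upper-quartile scaling, where its log2 fold change was -0.075.

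In all, 6 of the 8 members were past an edgeR adjusted p of 0.05 and all 6 were higher in PARGi, beside 24.3% of all tested genes called in either direction and 13.2% called as higher. In 7 members the groups did not overlap, beside 38.0% of all tested genes, and in 6 of these PARGi was the higher group, beside 19.8%. The members' median log2 fold change was 0.13, beside -0.0070 for all tested genes. Since these libraries were in view when the family was chosen, these counts carry no evidence of their own. The 7 members other than AFDN kept log2 fold changes above 0 in all 13 alternative analyses, and AFDN was below 0 in all of them. Upper-quartile scaling, which moved the share of higher calls over all genes from 54.5% to 40.5%, left 5 members called as higher and 1, AFDN, as lower.

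**Figure D2:**
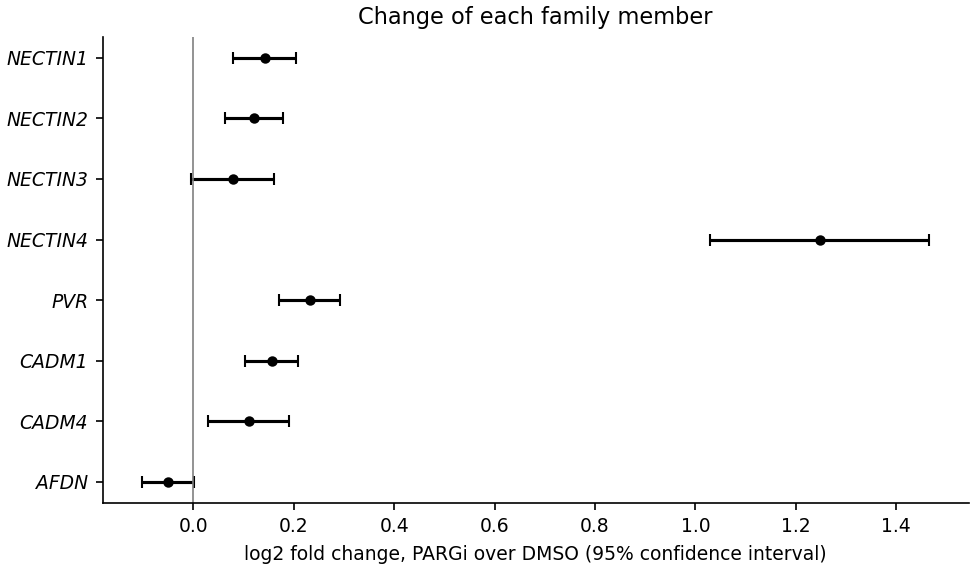
The log2 fold change of PARGi over DMSO for each member (edgeR) on the horizontal axis, with 95% confidence intervals. NECTIN4 stands at 1.25, while the other 7 members lie between -0.051 and 0.23, and the intervals of NECTIN3 and AFDN include 0.

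Levels of different genes were compared as CPM per kilobase of annotated exon, since long genes collect more reads. On this scale CADM4 was the most abundant member in DMSO at 60.9 ± 5.20 CPM per kb, followed by NECTIN2 at 39.8 ± 1.54 and PVR at 14.8 ± 0.219. AFDN (13.8 ± 0.183), CADM1 (8.86 ± 0.0257), NECTIN1 (7.79 ± 0.275) and NECTIN3 (3.66 ± 0.0559) came next in CPM per kb. NECTIN4 was last, at 0.494 ± 0.0324 CPM per kb. No neighbours in this order overlapped between libraries, and the order was identical in PARGi. In PARGi the levels ran from 65.8 ± 1.15 CPM per kb for CADM4 to 1.17 ± 0.0697 for NECTIN4. The smallest step was that from PVR to AFDN in DMSO, at 1.08 times, and that from CADM1 to NECTIN1 in PARGi, at 1.15 times. The order of PVR and AFDN depended on the length used: divided by the longest annotated transcript, AFDN (24.9 CPM per kb) stood above PVR (15.7 CPM per kb), and NECTIN2 (60.5) came close to CADM4 (62.8). The clear lead of CADM4 over NECTIN2 thus also depended on the length.

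Within the nectins themselves, NECTIN2 made up most of the level per kilobase in both groups. Its share of the summed level of the 4 nectins was 77.4%, 76.3% and 77.1% in DMSO and 76.5%, 75.7% and 75.9% in PARGi. The share of NECTIN4 was 0.993%, 1.01% and 0.858% in DMSO and 1.91%, 2.10% and 2.13% in PARGi. NECTIN4 thus remained a small part of the nectin transcripts after treatment, and NECTIN2 stood 81.0 ± 7.82 times above it in DMSO and 37.2 ± 2.43 times in PARGi. With the longest annotated transcript as the length, an alternative chosen after seeing the data, that ratio was 123 ± 11.9 in DMSO and 56.6 ± 3.70 in PARGi, and the share of NECTIN4 was 0.639 ± 0.0569% and 1.38 ± 0.0809%. The share of NECTIN1 was 15.1 ± 0.318% in DMSO and 15.1 ± 0.103% in PARGi. The sum of the 4 nectins was 51.8 ± 1.69 CPM per kb in DMSO and 56.9 ± 0.320 CPM per kb in PARGi. AFDN was 0.266 ± 0.0105 of that sum in DMSO and 0.233 ± 0.0033 in PARGi, and the libraries of the groups did not overlap (0.260 to 0.278 against 0.230 to 0.236). By the longest annotated transcript it was 0.321 ± 0.0126 in DMSO and 0.283 ± 0.0041 in PARGi. As NECTIN2 made up most of the sum, this ratio largely restates the differences of NECTIN2 and AFDN given above.

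**Figure D3:**
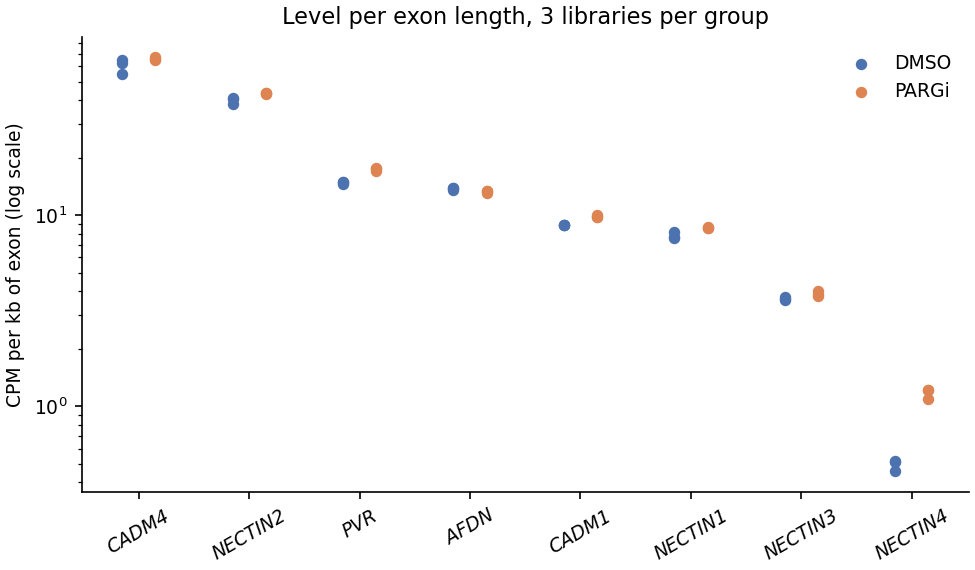
CPM per kilobase of exon on a log axis for each member, ordered by its level in DMSO, with a point for each library. The members span from 60.9 (CADM4) to 0.494 (NECTIN4) in DMSO, and only NECTIN4 shows a gap between the groups that is wide on this axis.

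Genes around NECTIN4 were examined to see whether neighbours moved with it. None of the 6 nearest tested genes was called by edgeR, DESeq2 or limma-voom, beside 24.3% of all tested genes called by edgeR. For 1 of them, PFDN2, the unadjusted edgeR p was under 0.05, as it was for 7142 of all 20409 tested genes. With only 6 genes, these counts do not set the neighbours apart from all tested genes. PFDN2, a subunit of the prefoldin chaperone 10957 bases away, was at 85.0 ± 6.51 CPM in DMSO against 90.3 ± 0.361 CPM in PARGi, a log2 fold change of 0.085 (SE 0.037, edgeR adjusted p = 0.101). It was called without DMSO replicate 3, at 0.14 (edgeR adjusted p = 0.00151), and with no filter on low counts. Without DMSO replicate 2 it was at 0.029 (edgeR adjusted p = 0.564). ARHGAP30, which lies 1025 bases from NECTIN4 on the same strand, stood at 0.302 ± 0.0774 CPM in DMSO against 0.425 ± 0.0815 CPM in PARGi. Its log2 fold change of 0.49 had a wide interval from -0.11 to 1.09, and the gene was not called (edgeR adjusted p = 0.241). USF1, a transcription factor gene, had a log2 fold change of 0.048 (SE 0.036), TSTD1 one of -0.098 (SE 0.082), NIT1 one of -0.012 (SE 0.036) and DEDD one of -0.059 (SE 0.038). Apart from ARHGAP30, the highest upper bound of the 95% intervals of these genes was 0.16, while the lower bound of NECTIN4 was 1.03. The interval of ARHGAP30 reached above that bound. Since NECTIN4 was chosen with its large difference known, a gap to its neighbours follows in part from the choice.

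**Figure D4:**
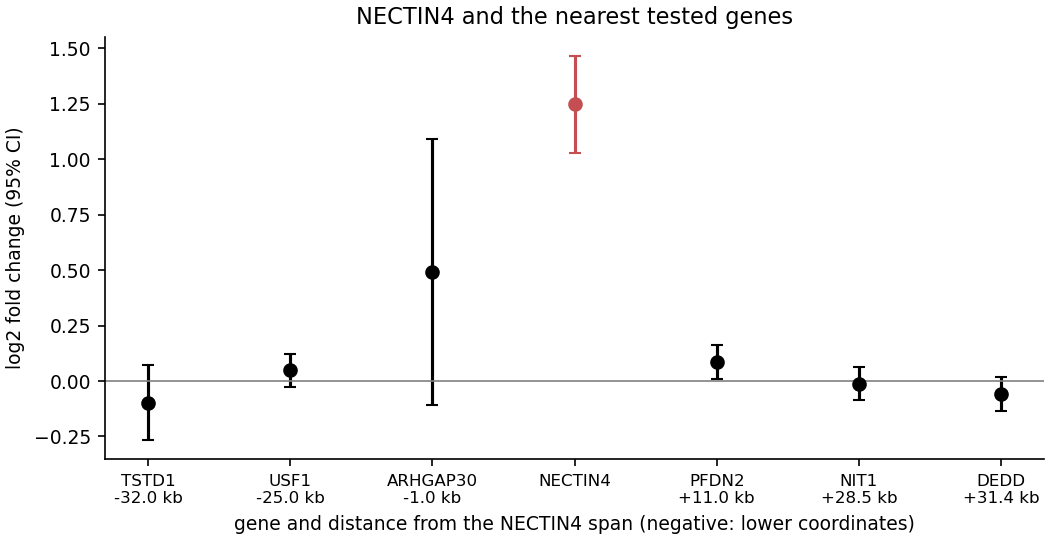
The log2 fold change of NECTIN4 and of the 3 nearest tested genes on each side (vertical axis, with 95% confidence intervals), labelled with the distance of each from the NECTIN4 span in kb. NECTIN4 stands at 1.25, ARHGAP30 is imprecise at 0.49, and the other 5 lie between -0.098 and 0.085.

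Among the members, the spans of NECTIN3 and PVR were overlapped by other tested genes with at least 0.5 CPM on average. NECTIN3-AS1 is a non-coding gene on the opposite strand to NECTIN3 (chromosome 3, 110893708 to 111071553) whose span overlaps that of NECTIN3 by 1483 bases and whose exons share 0 bases with it. It was at 123, 126 and 121 CPM in DMSO against 155, 152 and 155 CPM in PARGi, so that the groups were far apart. This was a log2 fold change of 0.32 (SE 0.026, edgeR adjusted p = 2.56e-09), whereas that of NECTIN3 was 0.079. Per kilobase of exon, NECTIN3-AS1 stood at 74.2 CPM per kb in DMSO and 92.4 CPM per kb in PARGi, far above NECTIN3. CEACAM19, on the strand of PVR, shares 121 exon bases with it, where reads cannot be assigned to either gene. CEACAM19 was at 7.57 ± 0.624 CPM in DMSO against 7.94 ± 0.291 CPM in PARGi (log2 fold change 0.073, SE 0.068). CEACAM16-AS1, on the opposite strand to PVR, was at 0.729 ± 0.0623 CPM in DMSO against 0.644 ± 0.127 CPM in PARGi. Neither of these was called.

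The remaining nectin-like genes and the lymphocyte receptors of the family gave 4 tested genes of 7. None was called by edgeR, DESeq2 or limma-voom, beside 24.3% of all tested genes called by edgeR. The unadjusted edgeR p was under 0.05 for 2 of them, and for 7142 of all 20409 tested genes. With only 4 genes, these counts do not set the list apart from all tested genes. CADM3, a nectin-like molecule best known from neurons, stood at 227 ± 5.29 CPM in DMSO against 235 ± 5.17 CPM in PARGi (log2 fold change 0.052, SE 0.026), and at 58.9 CPM per kb in DMSO. CADM4 stood at 60.9 CPM per kb there. The receptors TIGIT, PVRIG and CRTAM had at most 2 counts in a DMSO library and 0 in the PARGi libraries. CD96 was at 4.20 ± 0.322 CPM in DMSO against 3.55 ± 0.166 CPM in PARGi (log2 fold change -0.24, edgeR adjusted p = 0.0531), and CD226 was at 1.00 ± 0.0742 and 1.36 ± 0.278 CPM (0.46, edgeR adjusted p = 0.0532). With upper-quartile scaling 1 gene of this list was called.

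Genes that work with the family were grouped by role, and the calls below refer to edgeR's quasi-likelihood test with adjustment over all genes, of which 24.3% were called. These lists were written with earlier results of these data known, so their counts carry no evidence of their own. Of 17 genes for proteins that bind afadin or sit beside it in the junction, 8 were called, 4 higher and 4 lower in PARGi, with a median log2 fold change of 0.029. LIMA1, which encodes the actin-bundling protein EPLIN, rose from 115 ± 0.726 to 151 ± 2.72 CPM (log2 fold change 0.39 with SE 0.025 and edgeR adjusted p = 4.56e-11), and LMO7, an afadin-binding protein of the junction, rose from 101 ± 3.16 to 111 ± 1.16 CPM (0.14). PLEKHA7, which links the zonula adherens to microtubules, fell from 20.7 ± 0.280 to 16.3 ± 0.549 CPM (-0.35 with SE 0.044 and edgeR adjusted p = 1.88e-06). MPDZ, a scaffold with many PDZ domains, fell from 25.6 ± 0.495 to 20.8 ± 0.867 CPM (-0.30 with SE 0.042 and edgeR adjusted p = 8.22e-06). PARD3 (-0.11), a cell polarity gene, was also called as lower, and RAP1A (0.12) and PICK1 (0.14) as higher. PICK1 lost its call without DMSO replicate 2 (0.11) and without PARGi replicate 1 (0.10).

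The list of adaptors of the CADM proteins gave 7 calls of 11, 6 higher and 1 lower, with a median of 0.079. EPB41L3, the band 4.1 protein that binds CADM1, rose from 76.6 ± 2.23 to 87.3 ± 1.63 CPM (log2 fold change 0.19 with SE 0.029 and edgeR adjusted p = 2.58e-05). The membrane-associated guanylate kinase genes MPP2 (28 ± 0.754 to 32.4 ± 1.95 CPM, 0.21) and MPP1 (11.5 ± 0.680 to 14.0 ± 0.880 CPM, 0.28) rose, as did EPB41L1 (60.1 ± 2.39 to 66.6 ± 0.620 CPM, 0.15). EPB41L2 (0.079) and CASK (0.080) rose by little and were not called with upper-quartile scaling, at 0.054 and 0.055, which left 4 higher and 1 lower. EPB41L2 also lost its call without DMSO replicate 2 (0.066) and PARGi replicates 1 (0.072) and 2 (0.075). CASK lost its call with DESeq2 (0.083), with the replicate block (0.080, edgeR adjusted p = 0.0553), and without DMSO replicate 1 (0.063) or 3 (0.066) and without PARGi replicate 1 (0.089), 2 (0.072) or 3 (0.079). FARP1, whose product binds CADM1, fell from 113 ± 1.04 to 105 ± 1.54 CPM (-0.11).

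Of 16 genes of the cadherin-catenin junction, which include actin linkers beside cadherins and catenins, 5 were called, 4 higher and 1 lower, at a median of 0.010 that was -0.014 with upper-quartile scaling. Among the cadherins of this list, CDH2 (N-cadherin) had the highest CPM per kb. CDH2 was at 101 ± 1.80 CPM in DMSO against 105 ± 2.39 CPM in PARGi and was not called (log2 fold change 0.060, edgeR adjusted p = 0.118). JUP, which encodes plakoglobin, rose from 32.1 ± 0.898 to 36.3 ± 1.44 CPM (log2 fold change 0.18 with SE 0.038 and edgeR adjusted p = 0.00115). CTNNA1, which encodes alpha-catenin, fell from 332 ± 6.99 to 310.3 ± 2.54 CPM (-0.097 with SE 0.024 and edgeR adjusted p = 0.00472). VEZT, whose product vezatin sits at cell contacts, rose from 33.4 ± 1.11 to 36.6 ± 0.928 CPM (0.14), and CDH6 rose from 0.946 ± 0.0952 to 1.47 ± 0.254 CPM (0.65, SE 0.17). Without PARGi replicate 2, VEZT (0.12) and CDH6 (0.53) lost their calls and 3 genes of the list were called. CTNNB1, which encodes beta-catenin, did not pass, at -0.011 (SE 0.024).

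Tight junction genes gave 5 calls of 17 tested, 3 higher and 2 lower, at a median of -0.018. CLDN1, a claudin of the paracellular barrier, rose from 7.28 ± 0.318 to 10.4 ± 0.233 CPM (log2 fold change 0.51 with SE 0.060 and edgeR adjusted p = 8.70e-07), and OCLN, which encodes occludin, from 32.9 ± 1.03 to 36.4 ± 1.06 CPM (0.14). MARVELD3, a relative of occludin, fell from 2.69 ± 0.572 to 1.83 ± 0.0622 CPM (-0.55, SE 0.14) and TJP3 from 2.85 ± 0.321 to 2.21 ± 0.126 CPM (-0.37, SE 0.11). TJP3 lost its call with DESeq2 (-0.37), without DMSO replicate 3 (-0.31) and without PARGi replicate 3 (-0.32), and under each of these 3 genes of the list were called. CXADR, the fifth call, was at 0.094 (SE 0.032). It was not called with DESeq2 (0.098), with upper-quartile scaling (0.070) or the replicate block (0.094, edgeR adjusted p = 0.0547), nor without DMSO replicate 1 (0.096) or 3 (0.076) or PARGi replicate 1 (0.10), 2 (0.093) or 3 (0.086). F11R, which encodes a junctional adhesion molecule, was at 5.67 ± 0.324 CPM in DMSO against 5.76 ± 0.284 CPM in PARGi (0.027, SE 0.075).

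Of 14 genes that signal from or beside nectins, 5 were called, 3 higher and 2 lower, at a median of 0.043. ITGB3, the integrin subunit that pairs with integrin alpha-V, fell from 24.5 ± 0.759 to 19.1 ± 0.697 CPM (log2 fold change -0.36 with SE 0.043 and edgeR adjusted p = 8.80e-07). PTPRM, a receptor phosphatase of cell contacts, rose from 51.0 ± 0.898 to 58.7 ± 1.35 CPM (0.20, SE 0.030), and PDGFRB from 140.1 ± 3.85 to 152 ± 2.76 CPM (0.12, SE 0.027). CRK (0.073) and ERBB3 (-0.49) made up the other calls. CRK was not called with upper-quartile scaling (0.048), with no filter on low counts (0.077), with the replicate block (0.073, edgeR adjusted p = 0.0710) or without any one of the 6 libraries (0.066 to 0.078). ERBB3 was not called with DESeq2 (-0.49), without DMSO replicate 1 (-0.43) or 3 (-0.49), or without PARGi replicate 1 (-0.48) or 2 (-0.30). Without DMSO replicate 1, PARGi replicate 1 or PARGi replicate 2, 3 genes of the list were called. ERBB2, whose product can associate with nectin-4 on the cell surface, was at 90.0 ± 1.29 CPM in DMSO against 94.2 ± 1.84 CPM in PARGi and was not called (0.065, edgeR adjusted p = 0.0832).

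Of 8 genes for the shedding of cell surface ectodomains, 1 was called. This was TIMP3, an inhibitor of metalloproteinases, which rose from 84.2 ± 2.22 to 92.3 ± 1.78 CPM (log2 fold change 0.13 with SE 0.028 and edgeR adjusted p = 0.0011). The sheddases ADAM10 (0.043, SE 0.029) and ADAM17 (0.020, SE 0.028) were not called.

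Epithelial genes were compared because NECTIN4 is mostly an epithelial gene. Of 19 genes, 10 had a mean under 0.5 CPM and 8 were not tested, among them the epithelial regulators GRHL2, ESRP1 and OVOL1. Other listed genes were expressed at a few CPM and not called. GRHL1 was at 3.42 ± 0.192 CPM in DMSO against 4.02 ± 0.243 CPM in PARGi, and GATA3 at 4.03 ± 0.0821 and 4.29 ± 0.410 CPM. CLDN4 was at 4.10 ± 0.266 and 4.08 ± 0.566 CPM, and KRT7 at 2.77 ± 0.242 and 2.94 ± 0.262 CPM. Of the 11 tested, 3 were called, all higher, at a median of 0.088. The summed level of the list was 399.9 to 407.6 CPM in DMSO against 480.8 to 489.6 CPM in PARGi, and its part in the difference of NECTIN4 was not tested. KRT8 and KRT18 made up 379.2 to 386.5 CPM of it in DMSO against 459.7 to 467.3 CPM in PARGi. The other 17 genes summed to 20.7 to 21.6 CPM in DMSO against 21.1 to 22.4 CPM in PARGi, and those ranges overlapped. The keratin genes KRT18 (225 ± 4.45 to 272 ± 2.38 CPM, log2 fold change 0.28 with SE 0.025 and edgeR adjusted p = 9.68e-09) and KRT8 (159 ± 0.982 to 192 ± 2.54 CPM, 0.27, SE 0.025, edgeR adjusted p = 1.56e-08) rose. Both have many near-identical pseudogene copies, so their counts are uncertain. CDH1, which encodes E-cadherin, rose from 0.718 ± 0.0247 to 1.14 ± 0.208 CPM (0.67 with SE 0.19 and edgeR adjusted p = 0.0104), and lost its call without PARGi replicate 3 (0.56, edgeR adjusted p = 0.0785). EPCAM, an epithelial adhesion molecule, was at 3.53 ± 0.236 CPM in DMSO against 3.02 ± 0.0457 CPM in PARGi (-0.22, edgeR adjusted p = 0.0912).

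**Figure D5:**
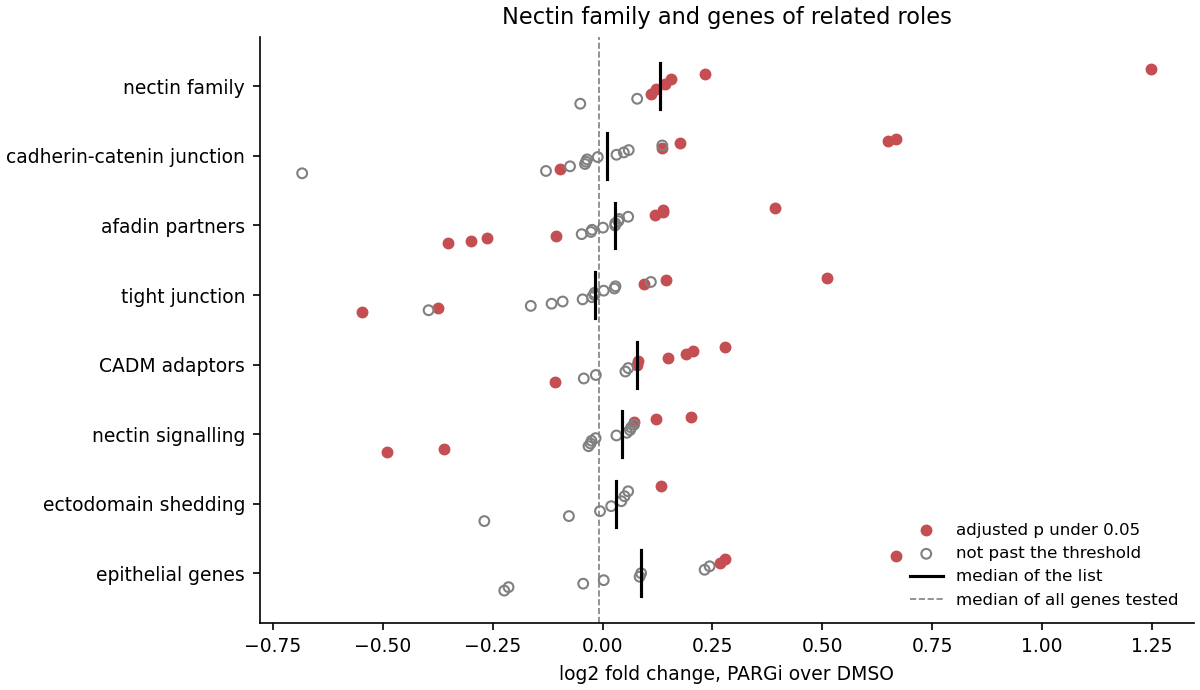
The log2 fold change of each tested gene, by role list, with filled points for an edgeR adjusted p under 0.05, a bar for the median of each list and a dashed line for the median of all tested genes (-0.0070). The family and the listed adaptors of the CADM proteins have medians of 0.13 and 0.079, and the partners of afadin spread to both sides, with 4 higher and 4 lower.

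The genes whose profile over the 6 libraries was most like that of NECTIN4 were found among the 16566 genes that averaged 0.5 CPM or more, by the root-mean-square difference of centred log2 CPM. The nearest were MT1E (0.0676, Pearson r of 0.995), MT2A (0.0802, r of 0.994) and TGM2 (0.0923, r of 0.989). RGS4 (0.103, r of 0.986) and CSF2 (0.108, r of 0.985) came next. Each r was taken over the 6 libraries of both treatments, so a shared difference between the treatments raises it. All of these genes were picked for their likeness to NECTIN4, so a high r and a similar log2 fold change follow from the choice. MT1E and MT2A encode metallothioneins, whose near-identical copies make the single values uncertain, TGM2 a transglutaminase, RGS4 a regulator of G-protein signalling and CSF2 the cytokine GM-CSF. TGM2 was at 9.57 ± 0.404 CPM in DMSO against 22.5 ± 1.71 CPM in PARGi, a log2 fold change of 1.23 (SE 0.056). RGS4 was at 8.34 ± 1.10 and 19.3 ± 1.04 CPM (1.22, SE 0.066), and CSF2 at 2.40 ± 0.128 and 5.50 ± 0.354 CPM (1.20, SE 0.092). No other family member was among them, since the largest log2 fold change of the other members was 0.23.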

How the data were processed

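Total RNA of U2OS cells was made into 6 libraries with a strand-specific total RNA kit, per the labels' protocols. Each library has 1 deposited table of whole-number read counts by gene, not normalized. The submitters' processing notes name cutadapt 1.18, STAR 2.7.3a, SAMtools 1.9 and the build hg38. The annotation release and the count column used are not given in the sources used here. Of 429 genes lying at least 95% inside the exons of an abundant gene (10 CPM or more) on the opposite strand, 374 had counts. Their median was 14 over 6 libraries. Counts of the wrong strand would be high in such genes, but counting that ignores strand would also leave them few. The kit's strand was therefore assumed, since this check cannot tell it from counting without strand.

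Symbols came from a table that held 60507 of the 60708 identifiers. Spans and exon lengths came from GENCODE 29 (58440 identifiers found) and upstream sequences from RefSeq (GRCh38.p14). Neighbouring and overlapping genes were sought only among the 20026 tested identifiers found in GENCODE 29. edgeR 4.0.16 (R 4.3.3) was run with filterByExpr, TMM scaling and the two-sided quasi-likelihood test on treatment, with Benjamini-Hochberg adjustment over 20409 genes at 0.05. Standard errors are the log2 fold change over the square root of F. Every fold change in the text is from this fit unless an alternative is named. Alternatives were DESeq2 1.42.0, limma-voom (limma 3.58.1), DESeq2 size factors, scaling by the upper quartile, testing without a filter, at least 10 counts in every library, the replicate number as a block, and each library left out. Without molecular identifiers, the counting error given covers read sampling only. The design text calls the replicates biological without naming separate cultures or days, and no pair of libraries was a duplicate.

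The members and all lists were chosen with earlier results of these data known. Named genes were the members, up to 4 called genes of each list with the smallest p, overlapping tested genes of at least 0.5 CPM, the 3 nearest tested genes on each side of NECTIN4, and the 5 genes most like NECTIN4. Any other gene was named after its values were seen. Of the afadin list, 1 called gene is counted but not reported by name here.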

Additional observations from a re-analysis of the deposited data

How the results depend on the processing

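Across 13 alternatives the log2 fold change of NECTIN4 lay between 1.19 (without DMSO replicate 3) and 1.29 (without PARGi replicate 1) and passed the threshold in all of them. NECTIN1, NECTIN2, PVR and CADM1 also passed in all 13, CADM4 in 6, NECTIN3 in 0 and AFDN in 1. The number of members called was 5 or 6 with a library left out. The count of all genes called was 3607 to 4848 with a library left out and 3800 with DESeq2. With a library left out, the calls among cadherin-catenin junction genes ranged from 3 to 6, among tight junction genes from 3 to 5 and among signalling genes from 3 to 5. DESeq2 called 3 tight junction genes. NIT1 changed sign without DMSO replicate 2, with values from -0.025 to 0.0058 over the libraries left out. Divided by the longest annotated transcript, the DMSO levels were 10.3 CPM per kb for NECTIN1, 60.5 for NECTIN2, 6.18 for NECTIN3, 15.7 for PVR, 11.4 for CADM1 and 24.9 for AFDN. The levels are higher because the lengths are shorter, and the cause of the other changes was not tested. The groups share replicate numbers, but deviations of same-numbered libraries correlated at -0.0059, 0.016 and -0.0078, so the numbers were not taken as pairs. A replicate block called 4553 genes and left all but 3 of 50 single genes on the same side of the threshold (CASK, CRK and CXADR). These took 1 call each from the CADM adaptor, signalling and tight junction lists, to 6, 4 and 4. The 113 to 340 counts per library behind NECTIN4 limit its precision, and ARHGAP30 had fewer still.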
